A study of Mus musculus with 8 samples.

Results

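The genes described here encode the machinery that separates chromosomes: the mitotic spindle, the kinetochore, the spindle checkpoint, the mitotic kinases and motors, condensin and the division furrow. They were chosen by name, 52 genes of the 12367 in the deposited table, and each of the 52 had a row there. They were measured by sequencing of polyadenylated RNA from alveolar macrophages, the macrophages of the lung's air spaces, flow-sorted from the lungs of untreated mice aged 3 weeks by CD45, F4/80 and CD11c. The tested mice (KO, 4 libraries) carried floxed Tfam alleles and a Cre recombinase driven by CD11c, labelled CD11c-Cre Tfam-fl/fl. The controls (WT, 4 libraries) carried the same floxed alleles without Cre, labelled Tfam-fl/fl. For every library, macrophages of 3 to 5 mice, male, female or mixed, were combined, and replicates are such pools. No group carried the Cre alone, so effects of Cre and of losing Tfam cannot be told apart. CD11c is also the sort marker and is made by dendritic cells as well as by alveolar macrophages.

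Alveolar macrophages keep their number by dividing in place, and in young mice the population still expands. A dividing cell makes most transcripts of the mitotic machinery only in the late part of its cycle, when the transcription factors B-Myb and FoxM1, together with the MuvB complex, act on promoters that carry a short element called the CHR. Condensin then compacts the chromosomes, the kinetochore ties them to spindle microtubules, the checkpoint holds the cell until every kinetochore is attached, and the anaphase-promoting complex releases it. Cells at rest hold these transcripts at low levels, while a few of the proteins also work in interphase.

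The promoter letters that these genes share are shown first, because they are a feature that the choice by name did not use. RefSeq start sites (GRCm38.p6, the build that the submitters name as GRCm38) gave windows of 300 bases, from 250 before to 50 after each start, for 45 of the 52 genes. The CHR letters TTTGAA or TTCGAA, on either strand, stood in the window of 34 of these 45 genes (75.6%), against 21.7% of the 27025 genes with a window. Within 50 bases of the start on either side they stood in 30 of 45 (66.7%), against 6.12% of all. The letters CCAAT, which the factor NF-Y reads, were found on either strand in 32 of 45 windows (71.1%), against 41.1% of all. Both together, with the CHR letters near the start, were held by 26 of 45 (57.8%), against 2.57% of all. These are letter matches in a fixed window, given as a description. They do not mark sites of binding, and whether they go with the fold changes below was not tested. The first 4 promoters below are the first with CHR letters in each of the first 4 functional classes, and Kif11 and Cdc20 were added after their values were seen, as genes whose matches lie close to the start. Each runs 5′ to 3′ on the gene's strand from 150 bases before the start to 30 after it, with CHR and CCAAT letters of either strand in capitals. A further CHR match of Smc2, from base 27 to base 32 after the start, runs past the end of the print and is not in capitals.

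Mki67 (chr7:135716350-135716529, minus strand): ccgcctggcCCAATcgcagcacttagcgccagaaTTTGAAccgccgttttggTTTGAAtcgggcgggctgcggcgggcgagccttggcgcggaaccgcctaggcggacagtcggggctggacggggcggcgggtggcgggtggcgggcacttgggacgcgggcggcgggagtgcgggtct
Smc2 (chr4:52439071-52439250, plus strand): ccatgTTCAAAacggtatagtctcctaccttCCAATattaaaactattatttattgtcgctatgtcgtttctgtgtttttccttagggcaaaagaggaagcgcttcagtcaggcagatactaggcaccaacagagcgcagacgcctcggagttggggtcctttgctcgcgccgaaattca
Cenpa (chr5:30666736-30666915, plus strand): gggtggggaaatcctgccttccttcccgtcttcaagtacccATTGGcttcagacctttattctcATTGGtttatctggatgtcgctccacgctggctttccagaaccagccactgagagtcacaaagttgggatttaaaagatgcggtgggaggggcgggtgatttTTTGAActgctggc
Bub1 (chr2:127831830-127832009, minus strand): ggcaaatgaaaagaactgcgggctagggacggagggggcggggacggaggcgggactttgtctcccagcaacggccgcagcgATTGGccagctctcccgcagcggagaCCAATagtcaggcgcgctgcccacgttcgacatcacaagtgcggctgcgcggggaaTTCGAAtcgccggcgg
Kif11 (chr19:37376232-37376411, plus strand): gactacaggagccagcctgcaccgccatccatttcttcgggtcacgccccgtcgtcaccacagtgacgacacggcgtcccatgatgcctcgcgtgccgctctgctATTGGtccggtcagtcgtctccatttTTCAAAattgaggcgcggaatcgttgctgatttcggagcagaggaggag
Cdc20 (chr4:118437314-118437493, minus strand): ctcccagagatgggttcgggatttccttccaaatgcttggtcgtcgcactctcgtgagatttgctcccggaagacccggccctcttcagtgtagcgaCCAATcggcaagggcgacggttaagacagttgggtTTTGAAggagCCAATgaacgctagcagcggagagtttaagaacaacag

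**Figure D1:**
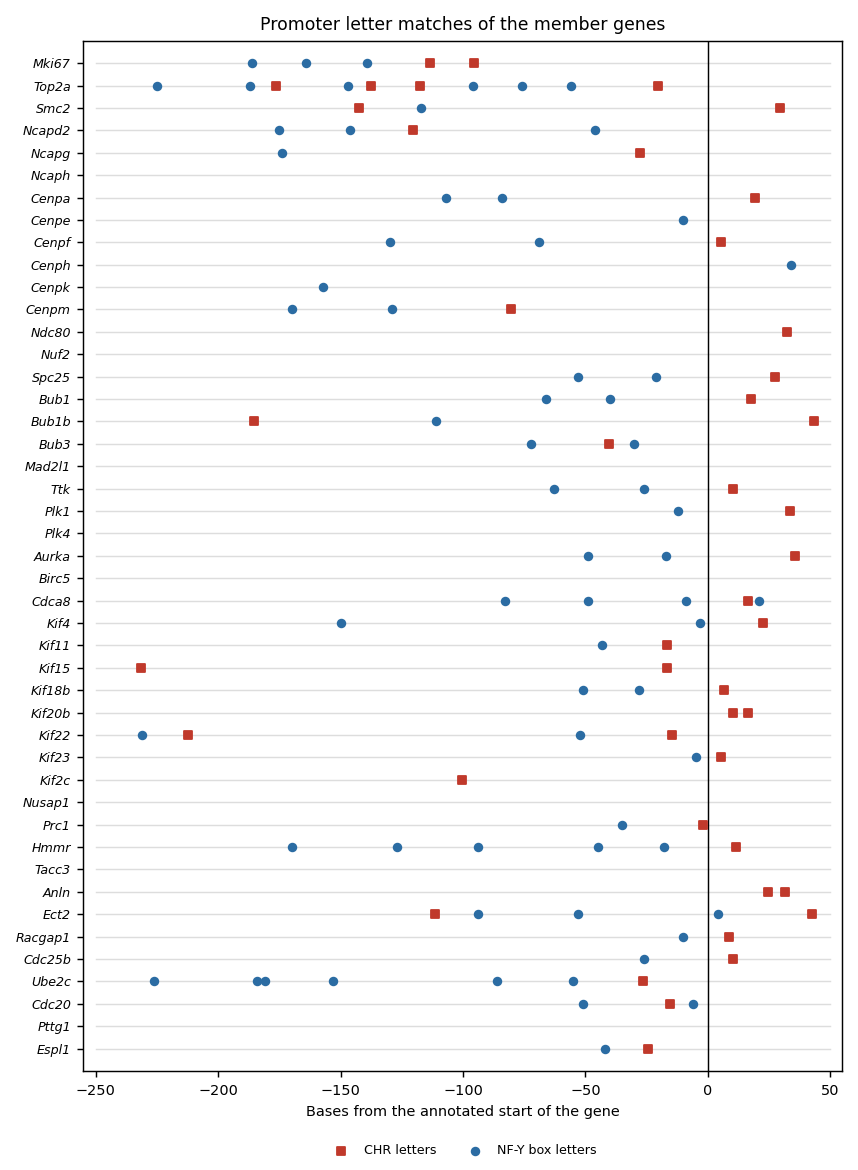
Positions of CHR letters (squares) and NF-Y box letters (circles) in the promoter windows of the 45 member genes with a RefSeq window, in bases from the annotated start, with the first listed window of a gene that has several. Squares gather around the start, while circles lie mostly upstream of it.

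Values are the authors' normalised signal on a per-million-reads scale. Fold changes are KO over WT, in log2 of value + 1, where the changes of low genes come out too small. Adjusted p-values are limma's over all 12163 genes tested. Read totals in the listed genes, inferred from the spacing of the values and not stated by the authors, were 20243772 to 30263201 per KO library and 24776683 to 29161957 per WT library. Tfam had values of 4.52, 5.08, 4.29 and 3.52 in the KO libraries, against 26.1, 35.2, 30.3 and 29.7 in the WT libraries (log2 fold change -2.55 with SE 0.117, limma adjusted p = 1.02e-06). The groups did not overlap, in the direction of the labels. As a sum, the 12 alveolar macrophage markers stood far above every other list, at 35250 to 40650 in KO and 34150 to 36650 in WT. Most of that sum was Chil3, at 27808 ± 2465 in KO and 23528 ± 1334 in WT. In KO, Ear1, Fabp4 and Siglecf averaged 123, 149 and 194, below the endothelial marker Vwf at 287, while in WT each averaged more than Vwf. Of the 12, 3 were called higher in KO (Itgax, Car4 and Plet1) and 4 lower. The 4 were Siglecf at 38.8%, Ear1 at 14.6%, Ear2 at 21.3% and Krt79 at 47.3% of their WT means. The shares to set beside these marker counts are 18.7% higher and 20.0% lower over all genes tested. Markers of interstitial macrophages and monocytes were higher in KO: 7 of 8 tested were called higher, and their sum lay between 157 and 298 in KO and between 49.3 and 80.1 in WT. Of 18 fixed markers of T cells, B cells and NK cells 4 had values here, all at or under 4.29. Lck, a kinase of T cells, was called higher in KO. It reached the minimum value of 1 for testing only in KO, at 1.26 to 3.05, against 0.083 to 0.31 in WT, so that it had to differ. Neutrophil markers summed to 29.7 to 41.5 in KO and 70.2 to 100.5 in WT, and erythroid markers to 54.4 to 133 in KO and 69.4 to 129 in WT. Among the neutrophil markers Csf3r was called lower, at 18.8 in KO and 56.1 in WT, as was S100a9, at 3.82 and 11.9. S100a8, at 11.6 in KO and 11.8 in WT, was not called. Of 5 endothelial markers Vwf alone was called, higher in KO at 287 ± 44.9 against 103 ± 26.0 in WT, while Pecam1, Cdh5, Kdr and Cldn5 overlapped between the groups at 82.3% to 110.5% of their WT means. Their sum was 250.3 to 356 in KO and 85.0 to 208.5 in WT. Epithelial markers to 186 to 239 in KO and 142 to 228 in WT, and dendritic cell markers to 15.4 to 28.2 in KO and 14.3 to 20.6 in WT. The part of these other cells in the results below was not tested.

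Of the 52 genes, 50 fell in KO, 1 rose and 1 did not pass the test. Among all genes tested 20.0% were called lower and 18.7% higher. The median log2 fold change of the 52 was -1.41, against -0.00633 over all genes tested, and 158 of the 12163 genes tested had a fold change below that median. A log2 fold change under -1 was called in 41 of the 52, against 2.86% of all genes tested. In 44 of the 52 the KO mean was below 50% of the WT mean, and the median gene kept 33.9% of it. Every KO library lay below every WT library in 50 genes and above in 1, a separation that 19.6% of all tested genes showed downward and 18.1% upward. In bulk RNA, fewer dividing cells and fewer transcripts per dividing cell cannot be told apart. Of the 52, 51 passed the filter on low values in the KO libraries as well. Cenpm passed it only through WT, where it was high, so that it had to differ.

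**Figure D2:**
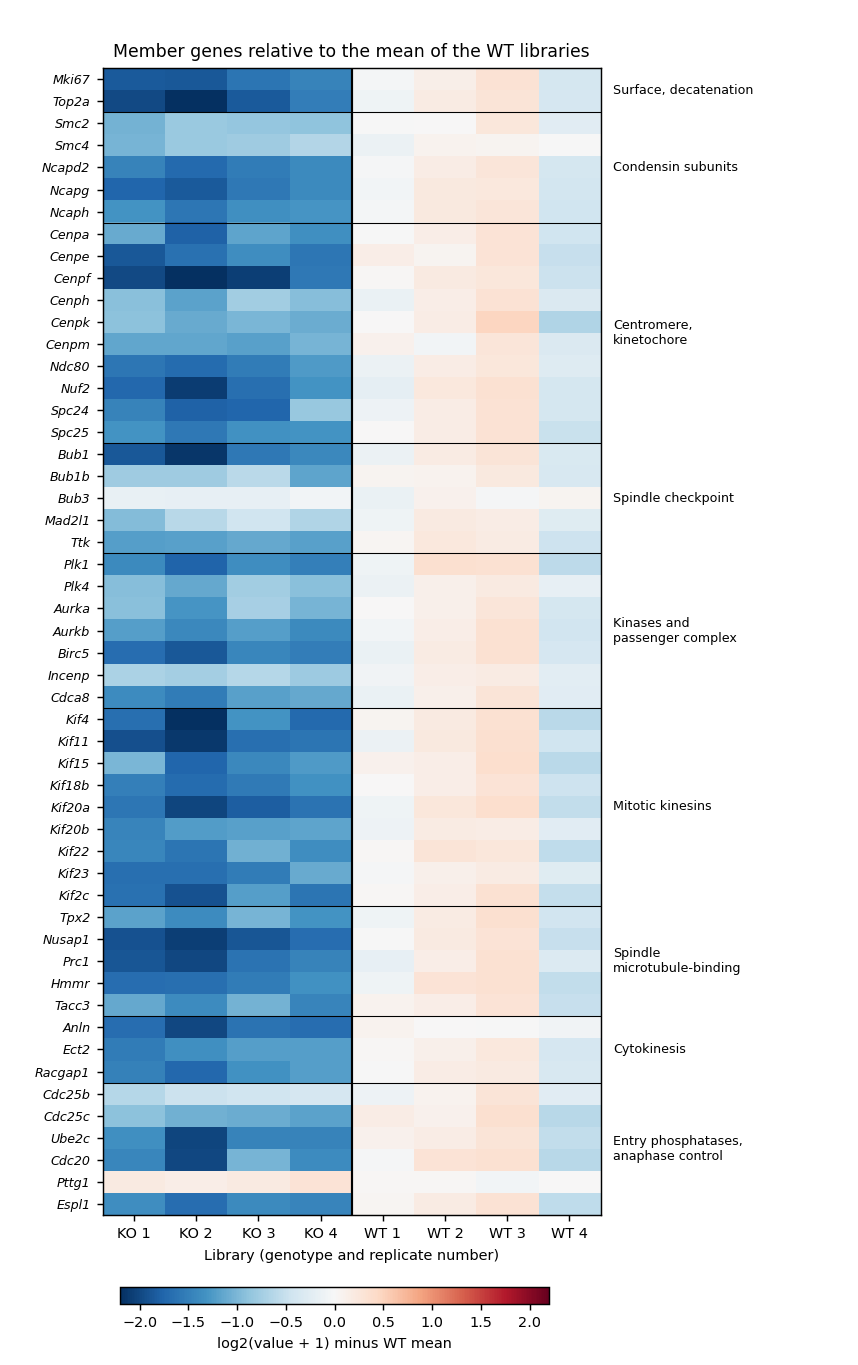
log2(value + 1) of the 52 genes (rows, by class) in the 4 KO and 4 WT libraries (columns), minus the mean of the WT libraries. The KO columns are blue in all rows but those of Bub3, which is nearly white, and Pttg1, which is pale red. Among the WT columns replicate 4 is the lowest in 49 of 52 rows.

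Mki67 coats the surface of mitotic chromosomes and is the usual marker of cycling cells, and Top2a untangles sister DNA. Mki67 (chr7:135689784-135716361) had values of 60.0, 59.5, 71.4 and 78.6 in the KO libraries, against 212.6, 239, 272 and 168 in the WT libraries. The highest KO library stood well under the lowest WT library, replicate 4, by a factor of 2.14. The log2 fold change was -1.70 (limma SE 0.145, adjusted p = 2.42e-05). Top2a (chr11:98992943-99024189) had 38.6, 31.9, 42.7 and 53.7 in KO and 145, 177, 189.6 and 119.6 in WT. Again KO replicate 4 was the highest of its group and WT replicate 4 the lowest of its own, and the log2 fold change was -1.90 (limma SE 0.174, adjusted p = 3.52e-05). KO replicate 2 was the lowest library for both genes.

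Condensin is a ring of the ATPases Smc2 and Smc4, closed in condensin I by Ncaph, Ncapg and Ncapd2. All 5 fell, from -1.64 to -0.82 on the log2 scale. Ncapg had 6.35, 5.83, 7.24 and 8.29 in KO, against 22.6, 27.4, 27.9 and 17.6 in WT, the lowest fold change of the class. Ncapd2 and Ncaph fell by 1.53 and 1.39. Smc4 had 92.5, 106, 109 and 119.8 in KO and 173, 199, 196 and 187 in WT, and its log2 fold change was -0.82 (limma SE 0.0802, adjusted p = 4.98e-05). Its WT values were close to each other, and WT replicate 4 was not the lowest among them. Smc2 fell by 0.89, to 40.9 ± 2.82 in KO, against 77.2 ± 11.1 in WT (SD, n = 4 each). The SMC cores, which condensin II shares, kept 52.9% (Smc2) and 56.6% (Smc4) of their WT means, and the 3 subunits particular to condensin I kept 29.0% (Ncapg) to 35.0% (Ncaph). The balance of Ncapg to Smc2 was lower in KO by 0.74 log2 units (exact two-sided permutation p = 0.0286, and 0.0612 after adjustment over 15 pairs). For Ncaph to Smc4 the difference was -0.57 log2 units and the groups overlapped (exact two-sided permutation p = 0.0571, and 0.0714 after adjustment).

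The centromere and kinetochore gave 10 genes, and all 10 fell, by a median of -1.42. Cenpf (chr1:189640606-189688086), a large protein of the outer kinetochore, had 7.95, 6.81, 7.44 and 10.96 in KO, against 35.3, 40.0, 41.4 and 24.6 in WT. It kept 23.5% of its WT mean, the smallest share of the 52, and its log2 fold change was -1.96 (limma SE 0.179, adjusted p = 3.45e-05). Cenpe, a kinesin that carries chromosomes to the spindle's middle, had 9.65, 11.5, 14.1 and 11.8 in KO and 41.8, 39.6, 46.6 and 26.3 in WT. For both, KO lay far below WT and WT replicate 4 was the lowest control. The smallest fall of the class was that of Cenph, of the inner kinetochore, with 2.73, 2.12, 3.13 and 2.69 in KO and 5.38, 6.74, 7.79 and 4.65 in WT (log2 fold change -0.95). Its neighbour Cenpk fell by 1.03. Both genes are low, so the pseudocount weighs on their fold changes.

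The NDC80 complex, the rod that grips microtubules, fell in all 4 of its subunits. Ndc80 averaged 5.58 ± 0.922 in KO and 17.9 ± 3.22 in WT (log2 fold change -1.51), and its partner Nuf2 averaged 6.86 ± 1.71 in KO and 24.6 ± 6.02 in WT (log2 fold change -1.70). The inner pair had log2 fold changes of -1.46 for Spc24 and -1.38 for Spc25. Spc24 was uneven within KO, with 3.70 in replicate 4 and 1.44 to 2.04 in the other 3 libraries. Cenpa, the histone H3 variant that marks the centromere, averaged 7.96 ± 1.78 in KO and 21.9 ± 4.78 in WT and fell by 1.35. Cenpm, of the inner kinetochore, averaged 0.82 ± 0.0868 in KO and 3.01 ± 0.683 in WT and fell by 1.12.

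In the spindle checkpoint 4 of 5 genes fell, and the members spread widely, with a median of -0.83. Bub1, the checkpoint kinase at the kinetochore, had 6.85, 5.52, 8.66 and 9.76 in KO, against 25.3, 31.6, 34.2 and 21.7 in WT (log2 fold change -1.75 with SE 0.181, limma adjusted p = 6.82e-05). Bub1b, which encodes BubR1, had 69.8, 70.2, 80.2 and 53.9 in KO and 127, 128, 140.4 and 95.04 in WT. Its log2 fold change was -0.83, and unlike most genes here its lowest KO library was replicate 4. Ttk, the kinase that starts checkpoint signalling, fell by 1.18, and Mad2l1, the Mad2 inhibitor of Cdc20, fell by 0.66. Bub3 (chr7:131560222-131571895) was the one gene that did not pass the test. It binds Bub1 and BubR1 and carries them to kinetochores. Bub3 had 65.9, 65.1, 65.1 and 70.8 in KO and 66.9, 79.1, 73.1 and 77.5 in WT, and the groups overlapped (log2 fold change -0.15 with SE 0.064, limma adjusted p = 0.0966). Without WT replicate 1, its lowest control, Bub3 was called lower (log2 fold change -0.20, limma adjusted p = 0.0339).

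All 7 genes of the mitotic kinases and the chromosomal passenger complex fell, by a median of -1.31. In the passenger complex Aurora B is the kinase, Incenp its scaffold and activator, and survivin (Birc5) and borealin (Cdca8) place it at the centromere. Birc5 had 6.95, 5.96, 8.41 and 7.83 in KO, against 21.9, 27.7, 31.3 and 18.7 in WT, and its log2 fold change was -1.63 (limma SE 0.159, adjusted p = 4.98e-05). Incenp had 36.8, 35.4, 38.7 and 34.0 in KO and 56.8, 66.4, 68.0 and 51.0 in WT, and its log2 fold change was -0.72 (limma SE 0.0939, adjusted p = 0.000269). Neither gene overlapped between the groups, and Incenp kept 59.8% of its WT mean where Birc5 kept 29.3%. Aurkb and Cdca8 fell by the same 1.31. Among the kinases outside the complex, Plk1, which acts from entry to exit, fell by 1.51, to 4.84 ± 0.698 in KO, against 16.1 ± 4.80 in WT. Aurka, the centrosomal Aurora kinase, fell by 0.99 and Plk4, which starts centriole duplication, by 0.94.

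All 9 mitotic kinesins fell, with log2 fold changes between -1.83 and -1.26. Kif11, which slides microtubules apart to make the spindle bipolar, had 11.8, 10.2, 14.5 and 15.004 in KO, against 43.9, 55.8, 61.0 and 34.9 in WT (log2 fold change -1.83 with SE 0.178, limma adjusted p = 4.79e-05). Its helper Kif15 fell by 1.35. Kif23, the motor of centralspindlin in the division furrow, had 23.7, 23.6, 25.8 and 35.3 in KO and 75.3, 82.8, 87.3 and 64.1 in WT, a log2 fold change of -1.49. Its highest KO library was replicate 4, as for Spc24. At the other end of the class, Kif20b, a motor of late cytokinesis, had 8.50, 10.1, 10.3 and 10.6 in KO and 23.1, 28.5, 28.1 and 20.9 in WT (log2 fold change -1.26 with SE 0.114, limma adjusted p = 3.4e-05). Kif20a, which moves the passenger complex to the midzone, fell by 1.76. The chromokinesins Kif4 and Kif22 fell by 1.73 and 1.37, and the depolymerisers Kif2c and Kif18b by 1.59 and 1.52.

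All 5 spindle proteins that bind microtubules fell. Nusap1, which bundles microtubules near chromosomes, had 10.52, 9.43, 10.9 and 12.6 in KO, against 42.5, 49.0, 53.0 and 29.8 in WT. It kept 24.9% of its WT mean, next after Cenpf, and its log2 fold change was -1.89 (limma SE 0.164, adjusted p = 2.66e-05). Tpx2, the activator of Aurora A on the spindle, had 22.7, 19.4, 25.4 and 20.4 in KO and 48.8, 59.3, 66.8 and 38.8 in WT, a log2 fold change of -1.22. The midzone bundler Prc1 fell by 1.74, the spindle assembly factor Hmmr by 1.55 and Tacc3, which bridges microtubules, by 1.25. The groups did not overlap in any of the 5.

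For the division furrow, Anln (chr9:22332012-22389188), the scaffold that links actin and septins, had 34.8, 27.7, 36.3 and 34.9 in KO, against 120.1, 115, 114 and 107.6 in WT. It had the widest gap between the groups of the 52, the lowest WT library being 2.97 times the highest KO library (log2 fold change -1.75 with SE 0.0846, limma adjusted p = 1.19e-06). Its WT values were even, and replicate 4 reached at least 90% of the WT mean, which held for 4 of the 52 genes. Ect2, the exchange factor that switches on RhoA, had 8.37, 9.70, 10.8 and 10.7 in KO and 26.8, 28.4, 31.1 and 20.0 in WT (log2 fold change -1.33). Racgap1, the partner of Kif23 in centralspindlin, fell by 1.44.

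Genes of mitotic entry and of the anaphase switch held the one gene that rose. Ube2c, the ubiquitin-conjugating enzyme of the anaphase-promoting complex, had 7.04, 4.03, 6.38 and 6.32 in KO, against 20.7, 21.9, 23.8 and 12.9 in WT (log2 fold change -1.57 with SE 0.201, limma adjusted p = 0.00023). Cdc20, the activator of that complex, fell by 1.46. Espl1, the separase that cuts cohesin, averaged 5.58 ± 0.606 in KO and 17.7 ± 4.50 in WT and fell by 1.47. Pttg1 (chr11:43420250-43426251), the securin that holds separase inactive, went the other way. It had 31.1, 30.0, 30.9 and 33.4 in KO and 27.4, 27.5, 25.6 and 27.0 in WT, higher in every KO library than in any WT library (log2 fold change 0.21 with SE 0.0593, limma adjusted p = 0.0172). This call was lost without WT replicate 3 (log2 fold change 0.19, limma adjusted p = 0.0536). The balance of Espl1 to Pttg1 was lower in KO by 1.69 log2 units (exact two-sided permutation p = 0.0286, and 0.0612 after the same adjustment). Of the phosphatases that open mitosis by acting on Cdk1, Cdc25c fell by 1.06, to 1.25 ± 0.173 in KO, against 3.83 ± 1.26 in WT. Cdc25b had 42.1, 47.1, 48.2 and 50.4 in KO and 60.2, 69.3, 80.3 and 54.99 in WT, and its log2 fold change was -0.48 (limma SE 0.112, adjusted p = 0.00776), the smallest fall that was called.

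**Figure D3:**
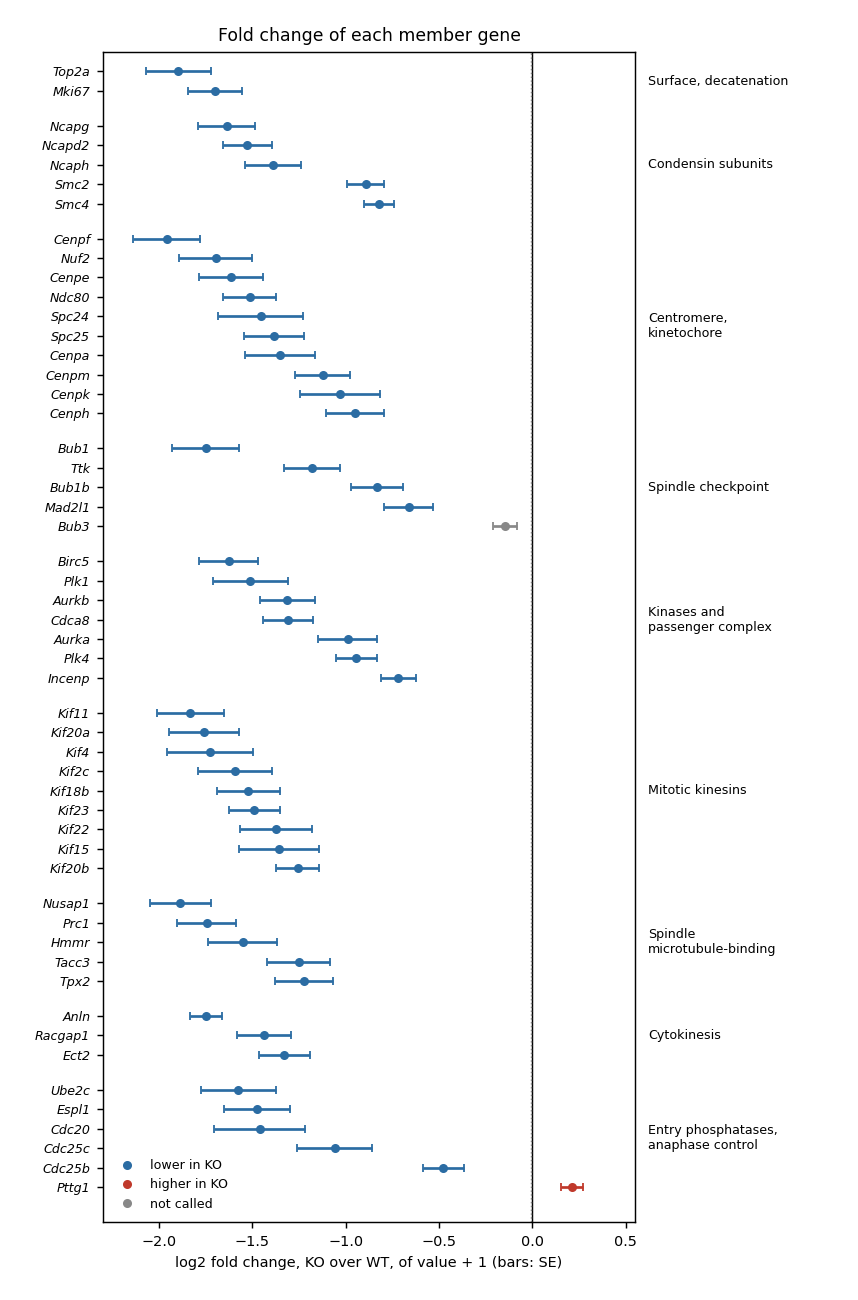
log2 fold change of value + 1, KO over WT, of each of the 52 genes with its standard error (bars), by class and ordered within it. Most points lie between -2 and -1, while Bub3 stands near 0 and Pttg1 above it.

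Partners within a complex or family were also set against each other. For 15 pairs, the difference of their log2 values was taken in each library and compared by exact two-sided permutation. In 7 pairs no KO library overlapped a WT library (exact permutation p = 0.0286 each, the smallest that 4 against 4 allow), and after adjustment over the 15 pairs their p was 0.0612, so that 0 pairs passed 0.05. Only 9 or more pairs at the smallest p could have passed. The widest shifts were those of Espl1 against Pttg1, at -1.69 (SE 0.212), and of Bub1 against Bub3, at -1.60 (SE 0.207). Ncapg against Smc2 was at -0.74 (SE 0.129), Aurkb against Incenp at -0.59 (SE 0.0744) and Plk1 against Plk4 at -0.57 (SE 0.143). Kif11 against Kif15 was at -0.48 (SE 0.173) and Birc5 against Cdca8 at -0.32 (SE 0.053). Among the other 8 pairs the groups overlapped. In 5 of these the exact permutation p was 0.0571: Bub1b against Bub3 at -0.68 (SE 0.208), Cdc25c against Cdc25b at -0.58 (SE 0.174), Ncaph against Smc4 at -0.57 (SE 0.173), Tpx2 against Aurka at -0.23 (SE 0.0638) and Ndc80 against Nuf2 at 0.18 (SE 0.0879). Kif23 against Racgap1 was at -0.05 (SE 0.0872, p = 0.514, exact permutation), Spc24 against Spc25 at -0.07 (SE 0.198, p = 0.743, exact permutation) and Cenph against Cenpk at 0.08 (SE 0.139, p = 0.6, exact permutation). Without WT replicate 4, 9 pairs passed at an adjusted p of 0.0476.

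**Figure D4:**
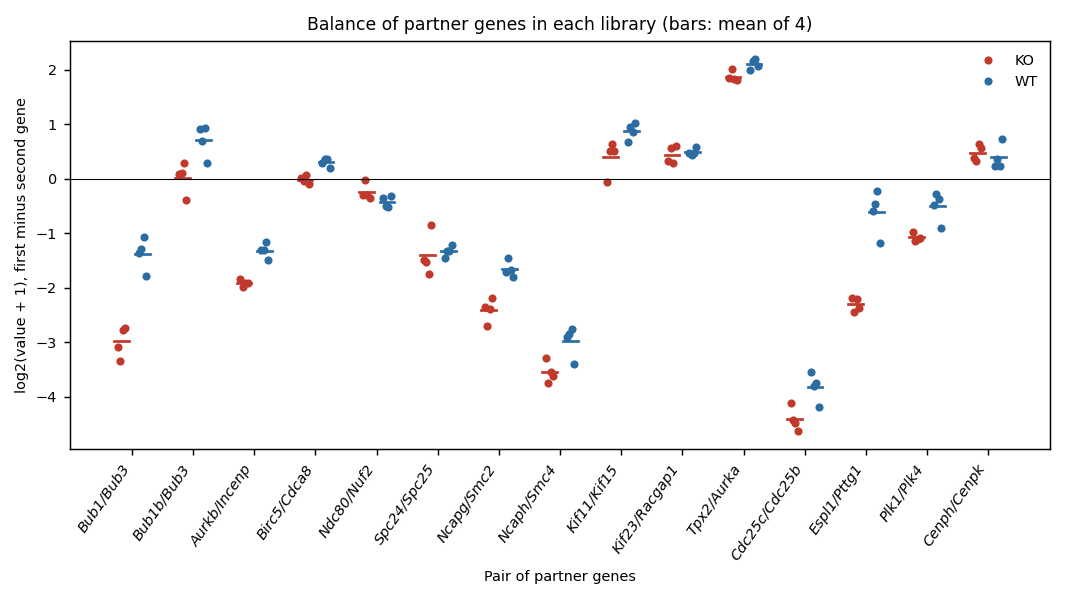
log2(value + 1) of the first gene minus that of the second for 15 partner pairs, in the 4 KO libraries (red, left) and the 4 WT libraries (blue, right), with bars at the means. KO lies below WT without overlap in 7 pairs, and the groups overlap in the other 8, Spc24/Spc25, Kif23/Racgap1 and Cenph/Cenpk among them.

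The pools of 1 genotype also differed among themselves, and most of the 52 genes moved together. WT replicate 4 was the lowest control for 49 of 52 genes, at a median of 73.2% of the WT mean, and WT replicate 3 was the highest for 43, at a median of 121%. The exceptions to the first were Smc4, Bub3 and Pttg1. Summed over the 52 genes the values were 877, 838, 972 and 983 in the KO libraries, against 2133, 2421, 2595 and 1766 in the WT libraries. The highest KO sum was thus still well below the lowest WT sum. Within KO, replicate 2 was the lowest for 38 genes and replicate 4 the highest for 25. Set against the WT library of the same number, the KO sum was 41.1% in replicate 1, 34.6% in replicate 2, 37.5% in replicate 3 and 55.7% in replicate 4, and 51 of 52 genes were lower in KO in each of the 4. WT replicate 4 and KO replicate 4 also stood apart from the other libraries on the second principal component of all genes (12.8% of the variance), at -25.6 for WT and -14.1 for KO. With both left out, 49 of the 52 genes were called lower, and the median log2 fold change was -1.63.

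Per kilobase of exon, the order of levels changed between the genotypes. Smc4 was first in both, at 20.5 per kilobase in KO and 36.2 in WT, and Bub1b second, at 16.03 in KO and 28.7 in WT. Pttg1 was 3rd of the 52 in KO and 8th in WT, and Bub3 was 5th in KO and 14th in WT. Mki67 went the other way, 8th in KO, at 6.70 per kilobase, and 3rd in WT, at 22.1. Cdc25c was the lowest in both, at 0.254 in KO and 0.778 in WT. Exon lengths are those of GENCODE M21, and the transcripts that these cells use may be shorter.

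Other genes of the pathway, in 7 lists chosen by role but with earlier results of these data known, were counted beside the 52. Of 126 tested, 79 fell (62.7%), 47 did not pass the test and 0 rose by limma, and the median log2 fold change was -0.36. The shares to set beside this and each list count below are 20.0% lower and 18.7% higher over all genes tested. At an unadjusted p under 0.05 the counts were 91 lower and 1 higher, and with voom weights 0 were called higher. In the list of other motors and spindle proteins 15 of 17 fell, with a median of -1.24. Aspm, which focuses spindle poles, averaged 7.27 ± 1.65 in KO and 29.7 ± 5.83 in WT (log2 fold change -1.90), and the microtubule-binding Ckap2 and Ckap2l fell by 1.75 and 1.71. Cit, the citron kinase of the midbody, fell by 1.35. Clasp1 and Kif2a, with log2 fold changes of 0.01 and 0.03, were the 2 that did not pass the test. Among microtubule-binding genes of the list that also serve interphase cells, Ckap5 fell by 0.41, Clasp2 by 0.26 and Mapre1 by 0.14.

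In the control of entry and of late-cycle transcription 12 of 17 genes fell, with a median of -0.99. Foxm1, whose product drives many of the 52 genes, averaged 6.27 ± 0.734 in KO and 24.8 ± 5.76 in WT, and its log2 fold change was -1.81 (limma SE 0.155, adjusted p = 2.45e-05). The cyclins Ccna2 and Ccnb2 fell by 1.82 and 1.77, and Pkmyt1, a kinase that restrains Cdk1, by 1.12. Mybl2, which encodes B-Myb, fell by 1.01. Of the MuvB subunits, Lin9 fell by 0.48, and Lin37, Lin52 and Lin54 were between -0.18 and 0.10 and did not pass the test.

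At the kinetochore 20 of 25 further genes fell, with a median of -0.72. Hjurp, the chaperone that deposits Cenpa, averaged 46.9 ± 4.69 in KO and 105 ± 6.87 in WT, and its log2 fold change was -1.15 (limma SE 0.0788, adjusted p = 6.56e-06). Knl1, the platform for Bub1 and Bub3, fell by 1.69. Ska1, which couples kinetochores to microtubules, averaged 1.32 in KO and 4.72 in WT and fell too. Among 7 further checkpoint genes 3 fell, a share of 42.9% against 20.0% of all genes tested. They were Kntc1 by 1.74 and Zwilch by 1.07, which form the RZZ complex with Zw10, and Trip13, which recycles Mad2, by 0.59. Zw10 itself, which also serves vesicle traffic, had a log2 fold change of -0.24 and did not pass the test (limma adjusted p = 0.0797).

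Of 18 further condensin and cohesin genes 12 fell, with a median of -0.37. Esco2, which acetylates cohesin during replication, fell by 2.02, Cdca5, the sororin that protects cohesin, by 1.33, and Ncapd3 of condensin II by 0.99. The cohesin ring subunit Smc1a, which also shapes interphase chromatin, fell by 0.38, to 118 ± 3.81 in KO, against 153.5 ± 2.73 in WT. In the core of the anaphase-promoting complex and its partners 9 of 17 fell, a share of 52.9% against 20.0% of all genes tested. The list's median was -0.21. Fbxo5, the Emi1 inhibitor of that complex, fell by 1.13, while the core subunits Anapc2 and Anapc4 fell by 0.29 and 0.25 and the enzyme Ube2s by 0.36. The count of 9 was 5 without WT replicate 2. It was 3 at an adjusted p under 0.01, where 1543 of the 12163 genes tested were called lower. Among 25 centrosome and augmin genes 8 fell, a share of 32.0% against 20.0% of all genes tested, led by Cep55 of abscission, by 1.52, and Stil of centriole duplication, by 1.42, with Haus4 at -0.76 and Cep192 at -0.67. Leaving out both replicate-4 libraries, 13 of these fell, and the share over all genes at that setting is not reported here. At an adjusted p under 0.01 the count was 5, beside the same 1543 of the 12163 genes tested.

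Kinesins of interphase transport, which move cargo in resting cells, were counted apart. Of 17 tested, 2 fell, 8 rose and 7 did not pass, and the list's median was 0.21. Over all genes tested 20.0% were called lower and 18.7% higher. At an adjusted p under 0.01, 4 of these kinesins were called higher and 1 lower, beside 1513 and 1543 of the 12163 genes tested. Kif3a, a motor of cilia and vesicles, averaged 27.4 ± 3.86 in KO and 13.6 ± 1.63 in WT (log2 fold change 0.96 with SE 0.112, limma adjusted p = 0.000138). Kif1c rose by 0.55, Kif21a by 0.85 and Kif1a by 0.87 on the log2 scale. Kif3b and Kif13a were the genes that fell, by 0.40 and 0.37, and the count of 2 was 1 without any of KO replicates 1, 3 and 4 or WT replicates 1, 2 and 3.

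**Figure D5:**
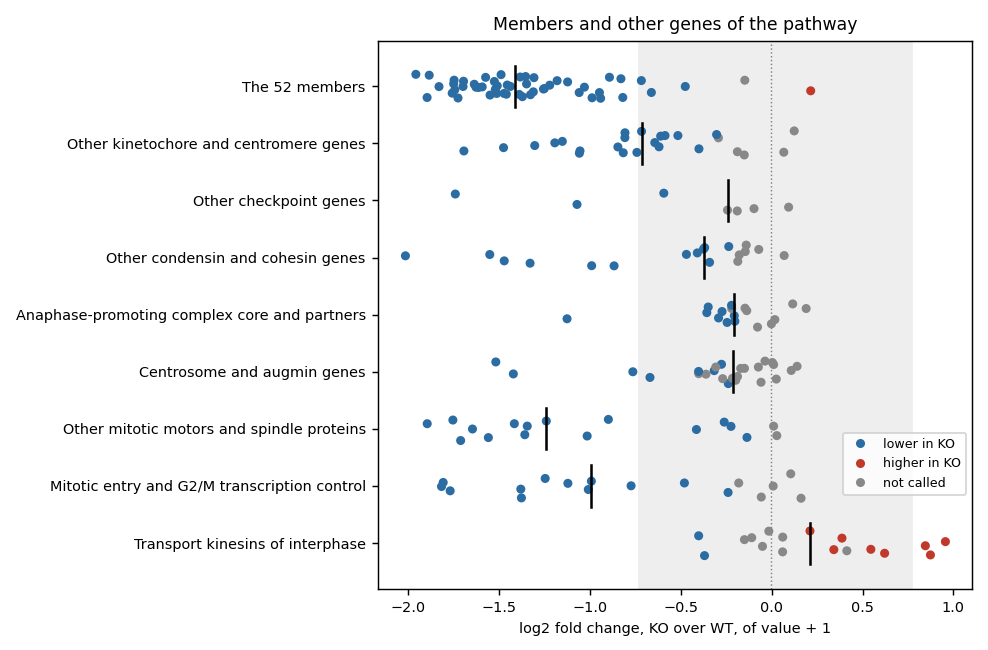
log2 fold change of value + 1, KO over WT, of the 52 genes and of the other lists of the pathway, 1 point a gene, with vertical bars at the medians. The grey band spans the 5th to 95th percentile of all genes tested (-0.73 to 0.77), and most of the 52 lie to its left.

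The annotation has a gene on the opposite strand, itself in the table, overlapping 10 of the 52: Cdc20, Cdc25b, Cdca8, Cenpk, Kif20a, Kif4, Ncapg, Nusap1, Prc1 and Tacc3. The libraries keep strand per the labels, but the strand setting of the counting is not given in the sources used here, so reads of these pairs may be shared. Kif4 and Kif22 have processed pseudogenes in the annotation, which were not analysed here.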

How the data were processed

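The authors deposited a table of normalised signal values, 1 per gene and library. The submitters' processing notes name RSEM 1.3.1, cutadapt 1.7.1, CASAVA 1.8.2 and limma, and GRCm38 as build, but in the sources used here no aligner or annotation is given. Each value has the spacing of a whole read number plus 0.5 on a scaled per-million signal (100% of values whole at a tolerance of 0.01), from which the read totals were inferred. Read numbers were not recovered in a form that a separate check of the values accepted. Only the fit with voom weights used these inferred numbers, and no other count-based test was built on them. Genes of at least 1 in at least 4 libraries were tested as log2(value + 1) with limma 3.58.1 in R 4.3.3 (variances moderated along a trend; two-sided; calls at a p under 0.05 after Benjamini-Hochberg adjustment). This left out 204 rows. The steps of the fit were tested on simulated data with independent libraries, the same small spread for all genes and few changed genes. That checks the code and not how the test behaves on these data. Pairs were tested by exact permutation.

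The members, classes, lists and pairs were chosen with earlier results of these data known. Per-library values are given, in each class, for the genes with the lowest fold change, the highest fold change and the highest mean, and for any gene not called. In each other list up to 4 genes with the lowest p are named (1 is not reported here), and Clasp1, Kif2a, Ckap5, Clasp2, Mapre1, Mybl2, the MuvB genes and Kif13a were added after their values were seen, Kif3b likewise.

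Replicate numbers run 1 to 4 in either genotype, with no label on their meaning. Same-numbered libraries deviated together (r = 0.36, 0.29, 0.39 and 0.43), and a replicate block was therefore fitted as an alternative. Other alternatives were other filters, pseudocounts, scalings, variance models, thresholds and left-out libraries.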

Additional observations from a re-analysis of the deposited data

Results flagged for a closer look

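Among 188 groups of 4 libraries examined, 6 held a library far from the other 3, a share of 3.19%, where chance flags about 1 in 20. For the 52 genes these were Spc25 in KO replicate 2, at 6.07 against 7.39 to 7.51 in the other KO libraries, and Anln in KO replicate 2, at 27.7 against 34.8 to 36.3. Bub3 stood at 70.8 in KO replicate 4, against 65.1 to 65.9 in the other KO libraries. In the other lists, Smc1a was at 112.5 in KO replicate 1 against 119.3 to 120.6, and Anapc2 at 70.7 in KO replicate 3 against 77.3 to 78.5. Ncapd3 was at 34.1 in WT replicate 4, against 39.6 to 40.2 in the other WT libraries.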

How the results depend on the processing

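The count of members called lower was 49 to 50 over the libraries left out in turn. It was 43 with a minimum value of 8, where fewer genes are tested and 6 of the 10 kinetochore genes were called. Members that reach 8 only in WT, such as Plk1 and Espl1, had to differ at that setting, so the 43 is no check of them. With the replicate block, 50 fell and 1 rose as without it. The block changed no call of a named member, and among the other genes named for their low p it changed Zw10 alone, called lower at -0.24 (limma adjusted p = 0.0162). Genes added after their values were seen were not rerun. Under the block 89 genes of the other lists were lower and 1 higher, in place of 79 and 0. Over all genes tested, more were called under the block too, both lower and higher, so the rise is not particular to these lists. The count of members called higher was 0 at an adjusted p under 0.01 and 0 to 1 over left-out libraries, and that of the other lists 0 to 1 over left-out libraries and 1 without both replicate-4 libraries. At 0.01 all genes called numbered 3056 in place of 4708, 1543 lower and 1513 higher. The members' median log2 fold change was -1.08 with a pseudocount of 5 and -1.56 to -1.32 over left-out libraries. Voom weights, fitted on the inferred read numbers and added after seeing the data, gave 50 and 1. Partner pairs that passed numbered 0 to 9 over left-out libraries. With a pseudocount of 5, Spc24/Spc25 reversed to 0.25 and Cenph/Cenpk to -0.020. Over left-out libraries Spc24/Spc25 ran from -0.25 to 0.043 and Kif23/Racgap1 from -0.10 to 0.00064, both above 0 without KO replicate 3. For these the cause was not tested. Count-based tests other than the voom fit were not run. Nor were pair tests with the block or without both replicate-4 libraries, whose smallest p are 0.125 and 0.1.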
